A study of Bos taurus with 8 samples.

Results

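The genes described here are 44 genes of fatty acid oxidation and targets of PPARA, measured in liver tissue of Holstein bull cattle. They were chosen by name: a probe belonged to the group when its gene name in the array files was one of the 44 names and it was not a control probe. Each name was carried by 1 probe, so the group holds 44 of the 15008 probes and 44 of the 14952 gene names on the array. The study asked what an antibody against lipopolysaccharide (LPS), the endotoxin of Gram-negative bacteria, does in cattle whose rumen is made acid by grain. Fistulated bulls of 5 to 6 months received egg-yolk immunoglobulin with this antibody through the rumen fistula once a day for 14 days, at 0 g (the control) or 4 g per head. The trial also had a 2 g dose, which was not analysed here. Both groups used here went through the same diet: hay for 11 days, a high-grain diet for 2 days as the challenge that brings on subacute ruminal acidosis (SARA), then hay again. The liver samples date from 2 days after the challenge. Animals 19, 20, 23 and 24 were sampled at both doses in a Latin square, so that there are 8 arrays, 4 per group. There was no group without the challenge, so every value belongs to cattle that had been through it.

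The oxidation of fatty acids runs in steps. A fatty acid is joined to coenzyme A, handed to carnitine to enter the mitochondrion, and shortened by repeated rounds of dehydrogenation, hydration, a further dehydrogenation and thiolytic cleavage, with the electrons passed to the respiratory chain; peroxisomes shorten very long and branched chains. PPARA is a nuclear receptor of hepatocytes that is activated by fatty acids and raises transcription of many of these enzymes during fasting, and in liver the products feed ketone body synthesis and the energy supply of gluconeogenesis.

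Levels are log2 values of the background-subtracted spot signal minus the 75th percentile of that array, so that 0 is the signal of a probe at that percentile and 1 unit is a 2-fold difference. A probe was tested when 4 or more of the 8 arrays showed it well above background, and the difference between doses (4 g minus 0 g) was fitted within animals with limma over all 10985 tested probes. Of the 44 members, 42 were tested and 38 were well above background on all 8 arrays. ABCD2, a peroxisomal importer of very long chain acyl-CoA, was well above background on 0 arrays, and HSD17B10, a mitochondrial hydroxyacyl-CoA dehydrogenase, on 1 array, so neither was tested. FGF21 was well above background on 7 arrays, PDK4 on 6, ACOX3 on 5 and ACSL4 on 4.

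Some arrays stand apart. Those of animal 19 at 4 g and of animal 20 at 0 g were the dimmest, with a 75th percentile of the signal of 125.8 and 126.3 against 218 to 312 on the other 6, and their deviations from the group means correlated at 0.62 across probes. Those of animal 23 at 4 g and animal 24 at 0 g correlated at 0.55. The 0 g array of animal 23 carried pancreatic transcripts: all 16 measured markers of pancreatic acinar cells were well above background there, at a mean level of 6.76, whereas on the other 7 arrays 4 to 13 were, at mean levels of −5.76 to −3.93. Probes with 2 distinct levels raised a doubt about animals 23 and 24. Of 20 such probes on which animal 19 and animal 20 each gave the same level on both of their arrays, 1 gave the same in animals 23 and 24, 9 gave 1 level on both 0 g arrays and the other on both 4 g arrays, 5 gave 1 level on all 4 arrays, 3 set a single array apart and 2 were crossed. In animals 23 and 24, dose and individual therefore cannot be told apart, and results below are given for animals 19 and 20 separately as well. These pairs of animals also lie in different rows of the slide. The labels give liver as the tissue, while their extraction protocol speaks of rumen epithelium. All 11 hepatocyte markers were well above background on every array. Their mean levels were 5.88 to 6.40 at 0 g and 5.96 to 6.23 at 4 g. Of 12 markers of squamous and rumen epithelium, 6 were on the 0 g array of animal 19 and 3 on each other array. The mean level of the 12 was −4.70 on that array and −7.08 to −5.78 on the others. A2ML1, at −0.59, and KRT6B, at 0.62, stood out there, against at most −5.26 and −2.51 elsewhere, while KRT5 and DSP did not. The part of this signal in the member levels was not tested.

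In the liver of these 4 animals, no member gene passed the test for a difference between 4 g and 0 g of antibody. The count of members called by limma at an adjusted p under 0.05 was 0 of 42, beside 0% of all tested probes (0 of 10985), and the adjusted p of every member was 1.00. Without adjustment, 1 of the 42 (VNN1) had p under 0.05, beside 1.1% of all probes, 37 of them higher and 84 lower at 4 g. The mean difference was above 0 in 27 of the 42 members, or 64.3%, beside 53.6% of all probes. The median difference over the members was 0.09, beside 0.02 over all probes, and 36 of the 42 differed by less than 0.25 in size. The fit leaves 3 residual degrees of freedom before pooling, and the 95% interval of a member's difference reached a median of 0.73 log2 units to either side, or 1.66-fold, so differences smaller than that were not detectable in many members. The interval lay within 1 log2 unit of 0, that is within a 2-fold difference, for 29 of the 42 members (69.0%), beside 64.3% of all probes.

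**Figure D1:**
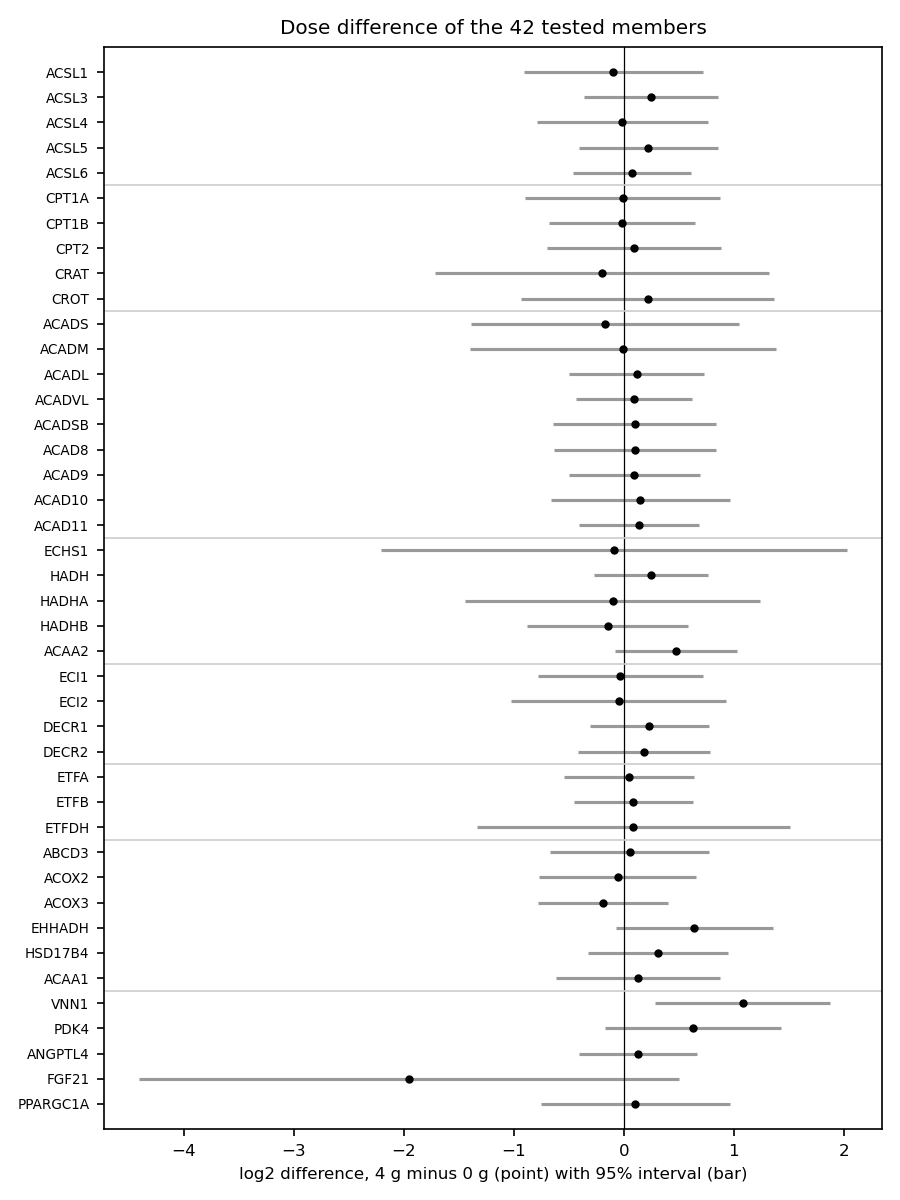
Log2 difference between 4 g and 0 g of antibody (horizontal axis; point) with its 95% interval (bar) for the 42 tested members, grouped by role. The interval of VNN1, from 0.29 to 1.88, is the interval that lies clear of 0, and FGF21 has the widest one, from −4.41 to 0.50.

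The probes of the members on which the results turn are printed 5′ to 3′ so that each value can be traced to the stretch of transcript it reports. Positions are those in the array files, on the cattle assembly UMD 3.1; the files give the gene of each probe but no exon or untranslated region. VNN1, EHHADH, PDK4 and FGF21 are the members with the largest dose differences beside ACAA2, while ECHS1, ETFDH and ACADM are those shown for the dim arrays and were chosen after their values were seen. The probes lie at chr9:71833299-71833330 (VNN1, of whose probe the first 30 bases are shown), chr1:82520533-82520592 (EHHADH), chr4:12763702-12763761 (PDK4), chr18:55835869-55835928 (FGF21), chr26:25862182-25862241 (ECHS1), chr17:41273430-41280181 (ETFDH, split over a span of 6752 bases) and chr3:69361218-69361277 (ACADM).
VNN1: tgctgaatgggaaggcggaaagaaaaaaca
EHHADH: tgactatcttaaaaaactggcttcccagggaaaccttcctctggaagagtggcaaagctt
PDK4: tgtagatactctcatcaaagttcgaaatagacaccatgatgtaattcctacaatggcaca
FGF21: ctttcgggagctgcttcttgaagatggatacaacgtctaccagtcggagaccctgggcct
ECHS1: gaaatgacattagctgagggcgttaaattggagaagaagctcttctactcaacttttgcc
ETFDH: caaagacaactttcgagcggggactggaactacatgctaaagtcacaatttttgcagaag
ACADM: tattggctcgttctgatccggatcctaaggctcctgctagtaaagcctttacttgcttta

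Among the PPARA targets and regulators, VNN1 had the lowest unadjusted p of all members. VNN1 encodes vanin 1, a pantetheinase that yields cysteamine and pantothenate and is a known PPARA target in liver. At 0 g its levels were 0.51 in animal 19, 0.77 in animal 20, −1.81 in animal 23 and −1.41 in animal 24, and at 4 g they were 0.94, 1.23, −0.13 and 0.36 in the same order. The value at 4 g was the higher one in 4 of 4 animals, yet the groups overlap, because animals 19 and 20 at 0 g lay above animals 23 and 24 at 4 g. The group means were −0.48 ± 1.31 at 0 g and 0.60 ± 0.61 at 4 g (SD, n = 4). The difference was 1.08 (SE 0.33, 95% interval 0.29 to 1.88), a 2.12-fold ratio, with an unadjusted p of 0.0153 and an adjusted p of 1.00 by limma. It was 0.44 in animals 19 and 20 and 1.72 in animals 23 and 24, the pair in which dose and individual cannot be told apart. Without the 0 g array of animal 23, in a fit with no animal term, it was 0.64. With both arrays of animal 23 left out and animal kept as a block, it was 0.89.

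PDK4 encodes the kinase that inhibits pyruvate dehydrogenase and so spares glucose when fatty acids are burned. Its levels at 0 g were −4.50, −4.75, −6.48 and −5.76 in animals 19, 20, 23 and 24, and at 4 g −4.50, −4.78, −5.25 and −4.45. Animals 19 and 20 stayed at their level while animals 23 and 24 had the higher value at 4 g, and the groups overlap. PDK4 was well above background on 2 arrays at 0 g and on 4 at 4 g, so the low values lie near background. The difference was 0.63 (SE 0.33, 95% interval −0.17 to 1.43; means −5.37 ± 0.92 and −4.74 ± 0.37, n = 4), with an adjusted p of 1.00 by limma. It was −0.01 in animals 19 and 20, 1.27 in animals 23 and 24, and −0.04 when the background was corrected by normexp (a model of signal plus noise) in place of the scanner software's subtraction. Its lowest level was on the 0 g array of animal 23, and without that array, in a fit with no animal term, the difference was 0.26. With both arrays of animal 23 left out and animal kept as a block, the difference was 0.43.

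FGF21 encodes a hormone that the liver releases in fasting and under PPARA activation. Its levels at 0 g were −5.50, −0.22, 1.32 and 0.08 in animals 19, 20, 23 and 24, and at 4 g −5.19, 0.45, −2.31 and −5.08. No other member spread so far over the arrays: animal 19 was low at both doses, animal 20 high at both, and animals 23 and 24 were high at 0 g and low at 4 g. The difference was −1.95 (SE 1.02, 95% interval −4.41 to 0.50; means −1.08 ± 3.02 and −3.03 ± 2.68, n = 4), with an adjusted p of 1.00 by limma. It was 0.49 in animals 19 and 20, −4.39 in animals 23 and 24 and −1.03 under normexp. Without the 2 dimmest arrays, in a fit with no animal term, it was −0.95. That fit keeps animal 19, low at both doses, only at 0 g and animal 20, high at both, only at 4 g. Its value therefore mixes the levels of these animals with dose. FGF21 was well above background on 4 arrays at 0 g and on 3 at 4 g. The highest level came from animal 23 at 0 g, the array with the pancreatic transcripts given above, and pancreatic acinar cells also make FGF21. Without that array, in a fit with no animal term, the difference was −1.15. With both arrays of animal 23 left out and animal kept as a block, it was −1.39. The part of the pancreatic transcripts in the FGF21 difference was not tested. In bulk tissue, fewer cells of a type and less RNA per cell cannot be told apart.

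ANGPTL4, a secreted inhibitor of lipoprotein lipase, had levels of 0.09, 0.18, 0.08 and 0.62 at 0 g and 0.30, 0.23, 0.43 and 0.52 at 4 g. The groups overlap and lie close together, with means of 0.24 ± 0.26 and 0.37 ± 0.13 (n = 4), and the difference was 0.13 (SE 0.22, 95% interval −0.40 to 0.66). PPARGC1A encodes a coactivator of PPARA and of gluconeogenic transcription. Its levels were −3.89, −3.39, −4.37 and −4.24 at 0 g and −3.63, −4.45, −4.06 and −3.32 at 4 g, again overlapping, and the difference was 0.11 (SE 0.36, 95% interval −0.75 to 0.97). It was −0.40 in animals 19 and 20 and 0.62 in animals 23 and 24, and −0.07 under normexp. Over the 5 genes of this role 4 had a positive difference, with a median of 0.13.

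**Figure D2:**
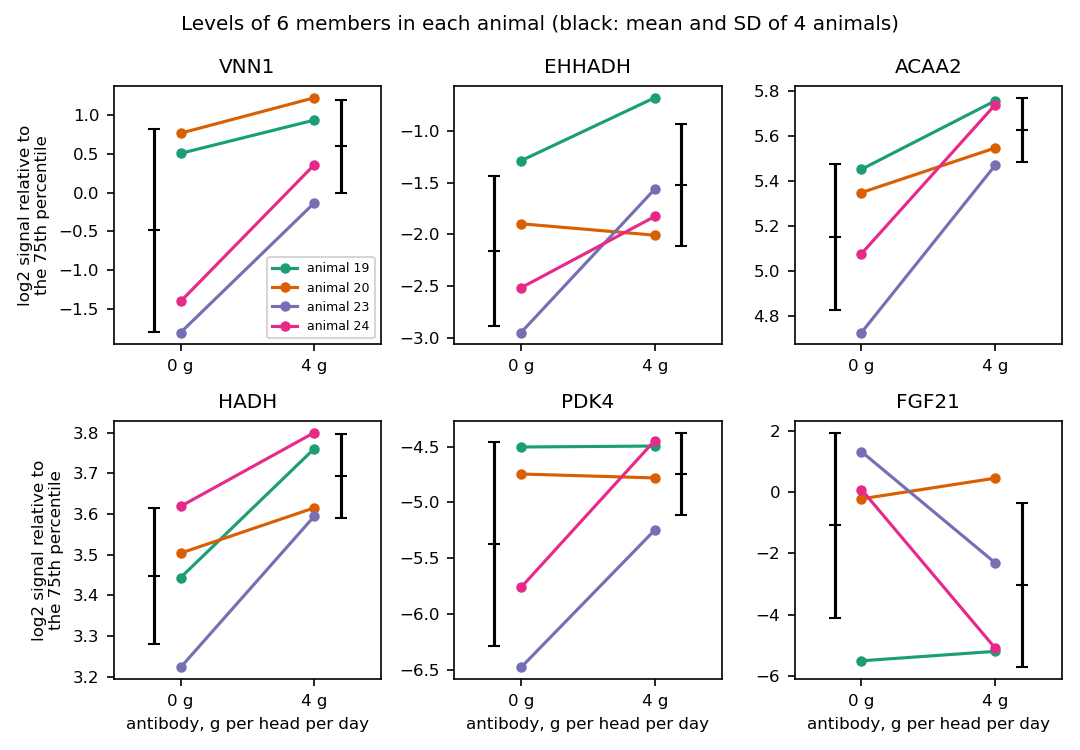
Level of VNN1, EHHADH, ACAA2, HADH, PDK4 and FGF21 (vertical axes, log2 signal relative to each array's 75th percentile) at 0 g and 4 g, with 1 line per animal and black bars for the mean and SD of 4 animals. The lines of animals 23 and 24 are steeper than those of animals 19 and 20 in VNN1, PDK4 and FGF21, and in ACAA2 every 4 g value lies above every 0 g value.

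The activation step is catalysed by the long-chain acyl-CoA synthetases, of which 5 were tested. ACSL5 levels were 6.47, 5.53, 6.17 and 6.41 at 0 g in animals 19, 20, 23 and 24, and 6.15, 6.33, 6.38 and 6.61 at 4 g. The groups overlap, and the difference was 0.22 (SE 0.26, 95% interval −0.41 to 0.86; means 6.14 ± 0.43 and 6.37 ± 0.19, n = 4). ACSL3 levels were 0.80, 1.34, 0.85 and 0.98 at 0 g and 1.65, 1.24, 0.96 and 1.12 at 4 g, also overlapping, with a difference of 0.25 (SE 0.25, 95% interval −0.37 to 0.86). ACSL1, the main hepatic form, had means of 3.61 ± 0.55 and 3.52 ± 0.57 (n = 4) and a difference of −0.10 (SE 0.34). The difference was −0.01 (SE 0.32) for ACSL4 and 0.08 (SE 0.22) for ACSL6. In this role the pairs of animals took the order opposite to the other roles: 5 of 5 genes had a positive mean difference in animals 19 and 20, and 2 of 5 in animals 23 and 24.

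Entry into the mitochondrion depends on the carnitine acyltransferases. CPT1A, the outer membrane enzyme that controls the rate of entry and a PPARA target, had levels of 0.84, 2.70, 1.12 and 1.20 at 0 g and of 1.44, 1.42, 1.23 and 1.73 at 4 g. A single array, the dim 0 g array of animal 20, stood above all the others, and the difference was −0.01 (SE 0.37, 95% interval −0.90 to 0.88; means 1.47 ± 0.84 and 1.46 ± 0.21, n = 4). Without the 2 dimmest arrays, in a fit with no animal term, it was 0.41. CROT, the peroxisomal carnitine octanoyltransferase, had levels of 2.23, 3.66, 1.85 and 2.06 at 0 g and 3.60, 2.19, 2.74 and 2.14 at 4 g. Its highest values were on the dim arrays, 1 in each group, and the difference was 0.22 (SE 0.48, 95% interval −0.93 to 1.37). CRAT, the acetyltransferase that buffers acetyl-CoA with carnitine, was at 0.11, −1.45, −0.26 and 0.39 at 0 g and at −2.45, 0.11, 0.03 and 0.31 at 4 g. Here the dim arrays gave the lowest values, and the difference was −0.20 (SE 0.63, 95% interval −1.72 to 1.32), or 0.07 without them in a fit with no animal term. CPT2, which returns the chain to coenzyme A inside the mitochondrion, differed by 0.09 (SE 0.33), and CPT1B, the muscle form, by −0.02 (SE 0.28).

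The acyl-CoA dehydrogenases open each round of oxidation, and 9 were tested, 7 of them with a positive difference and all 9 between −0.17 and 0.15. ACAD11, which acts on very long chains, had levels of 1.28, 0.98, 0.95 and 1.01 at 0 g and 1.19, 0.98, 1.12 and 1.47 at 4 g. The groups overlap, and the difference was 0.14 (SE 0.23, 95% interval −0.41 to 0.68). ACADL, the long-chain enzyme, had levels of −0.83, −1.00, −0.62 and −0.50 at 0 g and −1.22, −0.61, −0.11 and −0.55 at 4 g, overlapping as well, with a difference of 0.12 (SE 0.25, 95% interval −0.49 to 0.73). The medium-chain enzyme ACADM had the same mean at both doses within 0.01, 1.51 ± 1.33 and 1.50 ± 0.45 (n = 4), with an SE of 0.58 and a 95% interval of −1.40 to 1.38, and its values on the dim arrays are given below. ACADVL differed by 0.09 (SE 0.22), ACADSB, ACAD8, ACAD9 by 0.10 each (SE 0.31, 0.30 and 0.25), ACAD10 by 0.15 (SE 0.34) and the short-chain ACADS by −0.17 (SE 0.50).

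The later steps of each round are carried out by hydratases, hydroxyacyl-CoA dehydrogenases and thiolases. ACAA2, the mitochondrial thiolase that releases acetyl-CoA, was the member whose groups did not overlap: its levels were 5.45, 5.35, 4.73 and 5.08 at 0 g and 5.76, 5.55, 5.47 and 5.74 at 4 g. The gap between the lowest 4 g value (animal 23) and the highest 0 g value (animal 19) was narrow, 5.47 against 5.45, and the groups overlapped when the 75th percentile was taken over the probes measured on all arrays (4.20 against 4.22). The difference was 0.48 (SE 0.23, 95% interval −0.08 to 1.03; means 5.15 ± 0.32 and 5.63 ± 0.14, n = 4), a 1.39-fold ratio, with an adjusted p of 1.00 by limma. It was 0.25 in animals 19 and 20 and 0.70 in animals 23 and 24. The lowest value came from animal 23 at 0 g, the array with the pancreatic transcripts. With both arrays of animal 23 left out and animal kept as a block, the difference was 0.39. Groups without overlap were seen in 1 of 42 members, beside 0.61% of all probes.

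HADH, the short-chain hydroxyacyl-CoA dehydrogenase, had levels of 3.44, 3.50, 3.22 and 3.62 at 0 g and 3.76, 3.62, 3.59 and 3.80 at 4 g. Every animal had its higher value at 4 g, but the groups overlap, and the difference was 0.25 (SE 0.21, 95% interval −0.27 to 0.76). VNN1, ACAA2 and HADH were the 3 of 42 members that were higher at 4 g in 4 of 4 animals, beside 2.92% of all probes, and 0 of 42 were lower in 4 of 4, beside 2.16%. HADHA and HADHB, the subunits of the trifunctional protein that handles long chains, differed by −0.10 (SE 0.56) and −0.15 (SE 0.30), and the enoyl-CoA hydratase ECHS1 by −0.09 (SE 0.88).

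Unsaturated chains need isomerases and a reductase. DECR1, the mitochondrial dienoyl-CoA reductase, had levels of 2.77, 2.35, 2.50 and 2.84 at 0 g and 2.91, 2.81, 2.88 and 2.79 at 4 g. The 4 g values were close together and 1 of the 0 g values, that of animal 24, lay among them. The difference was 0.23 (SE 0.22, 95% interval −0.31 to 0.78; means 2.62 ± 0.23 and 2.85 ± 0.06, n = 4). DECR2, its peroxisomal counterpart, had levels of 5.71, 5.46, 5.23 and 5.58 at 0 g and 5.78, 5.23, 5.94 and 5.78 at 4 g, with overlap and a difference of 0.19 (SE 0.25). The isomerases ECI1 and ECI2 differed by −0.03 (SE 0.31) and −0.05 (SE 0.41). Electrons from the dehydrogenases pass through the flavoprotein made of ETFA and ETFB to its dehydrogenase ETFDH. ETFB levels were 4.27, 4.43, 3.92 and 4.15 at 0 g and 4.33, 4.20, 4.22 and 4.36 at 4 g, and ETFA levels were −0.19, −0.21, −0.34 and 0.10 at 0 g and −0.12, −0.21, 0.18 and −0.29 at 4 g. Both sets overlap, with differences of 0.09 (SE 0.22) for ETFB and 0.05 (SE 0.25) for ETFA. ETFDH differed by 0.09 (SE 0.59).

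In the peroxisome, EHHADH, the bifunctional enzyme of straight chains and a PPARA target, had levels of −1.29, −1.90, −2.95 and −2.52 at 0 g and −0.68, −2.01, −1.56 and −1.83 at 4 g in animals 19, 20, 23 and 24. It was higher at 4 g in 3 of 4 animals, and the groups overlap. The difference was 0.64 (SE 0.30, 95% interval −0.07 to 1.36; means −2.16 ± 0.72 and −1.52 ± 0.59, n = 4), a 1.56-fold ratio, with an adjusted p of 1.00 by limma. It was 0.25 in animals 19 and 20, 1.04 in animals 23 and 24 and 0.27 under normexp. The lowest value came from animal 23 at 0 g, and leaving that array out, in a fit with no animal term, gave 0.38. Leaving out both arrays of animal 23, with animal kept as a block, gave 0.40. HSD17B4, the bifunctional enzyme of branched chains and bile acid precursors, had levels of 4.64, 4.80, 4.28 and 4.50 at 0 g and 4.75, 4.56, 4.89 and 5.26 at 4 g. The groups overlap, and the difference was 0.31 (SE 0.26, 95% interval −0.32 to 0.95), or −0.06 in animals 19 and 20 and 0.68 in animals 23 and 24. The thiolase ACAA1 differed by 0.13 (SE 0.31), the oxidases ACOX2 and ACOX3 by −0.06 (SE 0.29) and −0.19 (SE 0.25), and the importer ABCD3 by 0.05 (SE 0.30).

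The share of members higher at 4 g varied between animals. In animal 19 the difference was positive in 25 of 42 members (59.5%), beside 54.3% of all probes, with a median of 0.07 over the members and 0.08 over all probes. In animal 20 it was positive in 22 of 42 (52.4%), beside 46.4%, with medians of 0.01 and −0.06. In animal 23 it was positive in 35 of 42 (83.3%), beside 49.3%, with medians of 0.31 and −0.01, and in animal 24 in 27 of 42 (64.3%), beside 58.6%, with medians of 0.19 and 0.09. Animal 23 thus lay furthest from its background, and its 0 g array is the one with the pancreatic transcripts. Without that array, in a fit with no animal term, 26 of the 42 members were higher at 4 g and their median difference was 0.0533. With both arrays of animal 23 left out and animal kept as a block, 22 of the 42 were higher. Their median difference was then 0.0142, beside 0.0335 over all probes. The part of the pancreatic transcripts in these counts was not tested. On the mean of animals 19 and 20, 18 of 42 members (42.9%) were higher at 4 g, beside 50% of all probes, and the median was −0.06. On the mean of animals 23 and 24, 36 of 42 (85.7%) were higher, beside 53.7% of all probes, and the median was 0.24. Among the peroxisomal genes, 1 of 6 was positive on the mean of animals 19 and 20 and 6 of 6 on that of animals 23 and 24. For the acyltransferases these counts were 0 of 5 and 5 of 5, and for the acyl-CoA dehydrogenases 4 of 9 and 9 of 9. They were 2 of 5 and 4 of 5 for the hydratases, hydroxyacyl-CoA dehydrogenases and thiolases and 2 of 4 and 3 of 4 for unsaturated chains. For electron transfer they were 1 of 3 and 3 of 3, and for PPARA targets and regulators 3 of 5 and 4 of 5. Activation ran the other way, at 5 of 5 and 2 of 5. Whether the pairs differ was not tested over the members, and in animals 23 and 24 the doubt about dose and individual holds for every one of these counts. Animals 19 and 20 each have 1 of the 2 dimmest arrays, at opposite doses, so their mean is not a clean reading of dose either. Their single differences were 1.37 and −1.47 for CROT and −2.56 and 1.56 for CRAT. The 0 g array of animal 19 is also the one with the raised epithelial markers given above. The part of that array and of the dim arrays in these counts was not tested.

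**Figure D3:**
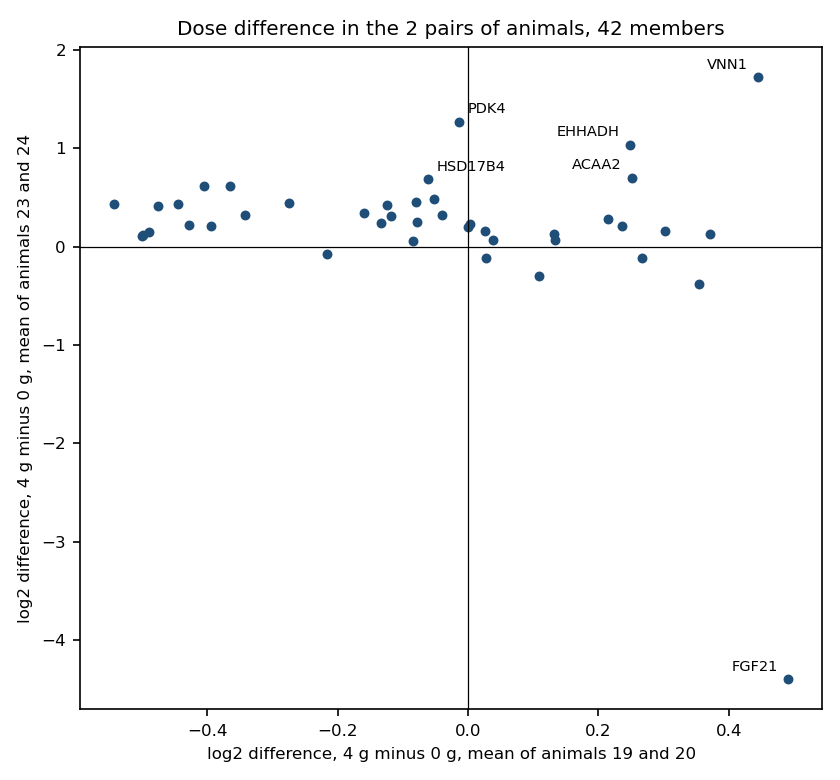
Mean log2 difference between 4 g and 0 g in animals 23 and 24 (vertical axis) against that in animals 19 and 20 (horizontal axis, a narrower scale), with 1 point per tested member. Of the 42 points, 36 lie above 0 on the vertical axis and 18 to the right of 0 on the horizontal axis, and FGF21 lies at 0.49 and −4.39.

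No member passed the test for a difference between animals, a test that the doubt about animals 23 and 24 touches. The count was also 0 with each animal left out in turn. The limma F-test on the animal terms gave an unadjusted p under 0.05 for 3 of the 42, beside 2.74% of all probes: VNN1 (0.0128), FGF21 (0.0295) and ACAD9 (0.0471). After adjustment 0 of the 42 passed, with a smallest adjusted p of 0.985, and 0 of all tested probes did, with a smallest of 0.103. ACAD9, an assembly factor of respiratory complex I that also acts as a dehydrogenase, had levels of 1.20 and 1.24 in animal 19, 0.89 and 0.61 in animal 20, −0.34 and 0.30 in animal 23 and 0.31 and 0.30 in animal 24 (0 g, then 4 g). Animals 19 and 20 thus lay above animals 23 and 24 on all of their arrays. These pairs also lie in different rows of the slide, so pair and row cannot be told apart. The 0 g array of animal 23, with the pancreatic transcripts, gave the lowest levels of VNN1 and ACAD9 and the highest of FGF21. Its part in these p-values was not tested.

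The 2 dimmest arrays, 1 of each dose, lay apart from the other 6 in many members, and in many of all probes too. The members named in this paragraph were chosen after their values were seen. Over the members, the median size of the shift between these arrays and the other 6 was 0.57, against a median size of 0.11 for the dose difference, and over all probes these were 0.50 and 0.14. Both dim arrays lay below all of the other 6 in 12 of 42 members, beside 19.8% of all probes, and above all of them in 7 of 42, beside 24.4% of all probes. Under normexp these counts were 10 and 2 of 42, beside 9.48% and 8.70% of all probes. ECHS1 was at 0.38 (4 g, animal 19) and 0.80 (0 g, animal 20) on the dim arrays and between 2.96 and 3.77 on the other 6, a shift of −2.77. HADHA was at 1.38 and 1.86 against 3.07 to 3.56, a shift of −1.70, and ACADS at 1.31 and 1.98 against 2.45 to 3.37, a shift of −1.24. ETFDH was at −3.64 and −3.47 against −2.42 to −1.49, and CRAT at −2.45 and −1.45 against −0.26 to 0.39, shifts of −1.70 and −2.07. In the opposite direction, ACADM was at 2.17 and 3.50 on the dim arrays against 0.81 to 1.32 on the others, a shift of 1.78, and CROT at 3.60 and 3.66 against 1.85 to 2.74, a shift of 1.43. On the same dim arrays, members thus lay on both sides of the other arrays, as the probes of the whole array did by the shares above.

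The genes named above were picked because both dim arrays lay beyond all the others. The dim array is the 4 g one in animal 19 and the 0 g one in animal 20. Opposite directions of the dose difference in these 2 animals therefore follow from that choice and are no separate result. ECHS1 differed by −3.39 in animal 19 and 2.60 in animal 20, but by 0.44 in animal 23 and −0.01 in animal 24, and ACADM by 1.36, −2.25, 0.39 and 0.47. Across the 42 members the shift correlated at −0.09 with the GC content of the probe and at −0.20 with the mean level, as a description over probes that share the same arrays. The shift of ETFDH was −0.21 and that of CRAT −0.97 under normexp, while that of ECHS1 was −2.53 and that of ACADM 1.48. The part of low signal in these shifts was not tested, and RNA quality values were not used here.

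**Figure D4:**
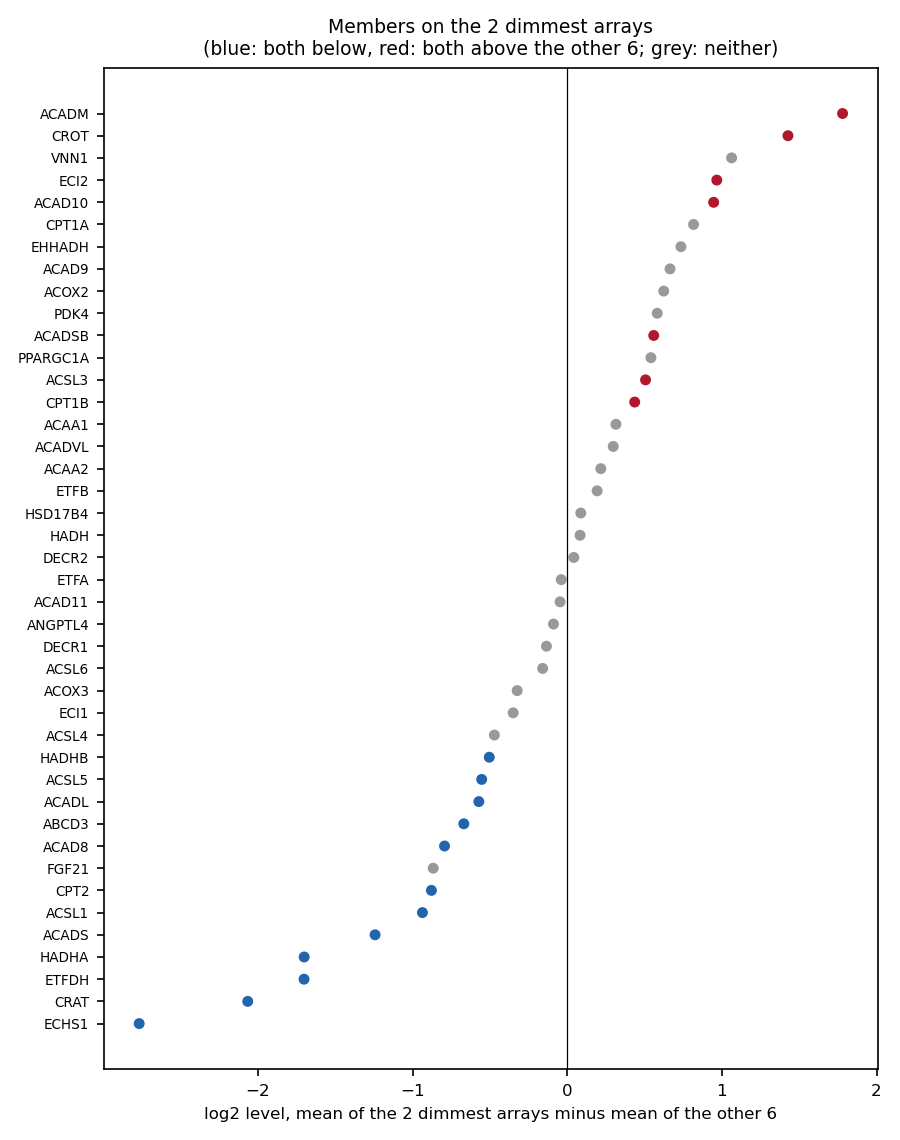
Mean level on the 2 dimmest arrays minus the mean on the other 6 (horizontal axis, log2 units) for the 42 tested members, in blue where both dim arrays lay below all the others and in red where both lay above. The shifts run from −2.77 (ECHS1) to 1.78 (ACADM), with 12 blue and 7 red points.

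**Figure D5:**
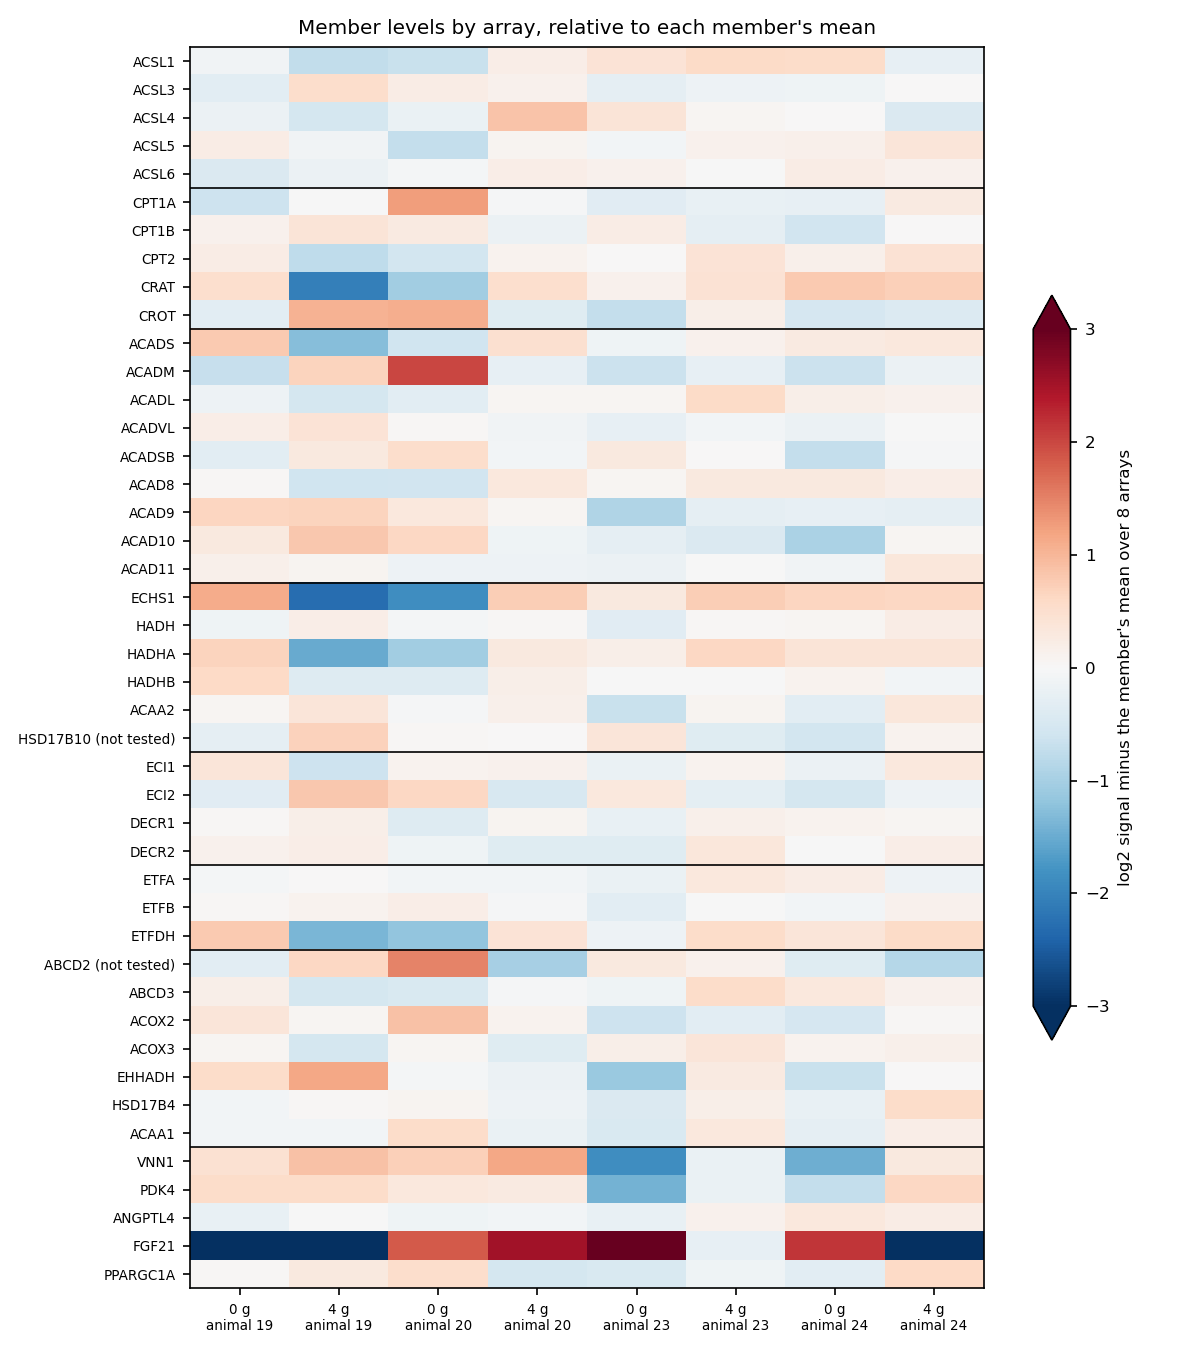
Level of each of the 44 members on each of the 8 arrays (columns, by dose and animal) as a log2 difference from that member's mean over the arrays, grouped by role, with the colour scale ending at −3 and 3. The columns of 4 g in animal 19 and 0 g in animal 20 share many of their blue and red cells, and FGF21 has the strongest colours.

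Other genes of the pathway, from a list chosen with earlier results known, were counted in the same way. Of 94 further genes of fatty acid handling and PPARA control, 91 were on the array and 82 were tested. Of these, 52 had a positive and 30 a negative difference, beside 53.6% of all probes with a positive one. Their median was 0.06, beside 0.02 over all probes. By limma, 0 were called, beside 0% of all probes, and 0 had an unadjusted p under 0.05, beside 1.1%. On the mean of animals 19 and 20, 24 of the 82 were higher at 4 g, beside 50% of all probes. On the mean of animals 23 and 24, 56 were, beside 53.7%. The limits given above for both pairs of animals hold here too. PPARA itself had means of −3.22 ± 0.46 at 0 g and −3.25 ± 0.38 at 4 g (n = 4), a difference of −0.04 (SE 0.35). The 3 with the smallest unadjusted p were PLIN5, a lipid droplet protein, at −0.79 (SE 0.36), MLYCD, the decarboxylase of the CPT1 inhibitor malonyl-CoA, at 0.46 (SE 0.22) and higher in 4 of 4 animals, and LPL, lipoprotein lipase, at −0.52 (SE 0.27) and higher in 0 of 4. LPL is also 1 of 7 adipocyte markers, of which 3 to 5 were well above background, and their mean level was lower at 4 g in every animal: −3.25 against −4.23 in animal 19 (0 g, then 4 g), −3.21 against −3.55 in animal 20, −2.40 against −3.78 in animal 23 and −4.42 against −4.52 in animal 24. That mean includes LPL itself. PLIN1 and LEP were well above background on 0 arrays and ADIPOQ on 2. FABP4 was lower at 4 g in every animal, CIDEC was higher in 3 of 4, and CFD went both ways. The mean levels of 8 stellate cell and fibroblast markers (0.17 to 1.27 at 0 g and −0.28 to 0.54 at 4 g) and of 7 endothelial markers (−0.43 to −0.17 and −0.87 to −0.19) were also lower at 4 g in every animal. The endothelial mean of animal 20 barely moved, from −0.166 at 0 g to −0.186 at 4 g. Single markers of both lists went both ways: COL1A1 was higher at 4 g in animals 20 and 24 and STAB1 in animals 19 and 23, and each was lower in the others. The part of these cell types in the value of LPL was not tested.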

How the data were processed

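Each of the 8 files holds 1 array, 1-colour (Cy3) with 60-base probes. Per the file headers, the spot intensity is the processed signal of Agilent Feature Extraction 11.0.1.1, background-subtracted and not scaled between arrays; the submitters' processing notes name version 9.5. The deposited series table holds log2 values centred on the 75th percentile by the authors: its columns correlated with the processed signal at 1.00 over probes. From the 15646 features of each array, 536 controls were left out. Over all 8 arrays together, 48 outlier spots were left out too, and spots of a probe were averaged. Log2 processed signals minus each array's 75th percentile entered lmFit and eBayes of limma 3.58.1 under R 4.3.3, 2-sided and with animal as block, with Benjamini-Hochberg adjustment over 10985 probes; the same fit was tested on simulated data. No spot was saturated, and 64.4% to 80.4% of probes were well above background; the number of arrays limits the precision. All arrays share 1 slide and 1 scan.

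The animals pair the arrays because the labels give the animal of each array and the trial was a Latin square, but the period of each dose is not in the labels and could not be a term. The deviations of an animal's arrays correlated at −0.19, −0.18, 0.21 and 0.13 in animals 19, 20, 23 and 24, and at 0.55 between animal 23 at 4 g and animal 24 at 0 g. The members, their roles and the other lists were chosen with earlier results of these data known. Values of every array are printed for 7 textbook PPARA targets or regulators and, in each role, for the 2 members with the smallest unadjusted p; of the other pathway genes, the 3 with the smallest p and PPARA are named, a further one that the rule names is not reported here, and other genes named were chosen after their values were seen. Alternatives were other scalings, background corrections, filters, variance models and array weights, no block, and fits without animals or arrays. Arrays of the 2 g dose and of further cattle were not analysed here.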

Additional observations from a re-analysis of the deposited data

Results flagged for a closer look

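CRAT at 4 g stood out for a single array. Animal 19 was at −2.45, and the other 3 animals lay between 0.03 and 0.31, so that the gap to the nearest of them took up 0.901 of the group's whole range, above the 95% critical value of Dixon's test for 4 samples. That array is 1 of the 2 dimmest. Of 40 groups of values screened for the 20 named members, 1 stood out in this way, and chance gives about 1 in 20.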

How the results depend on the processing

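The count of members called was 0 in each fit run, and the adjusted p of the 20 named members ran from 0.357 to 1.00. Without the animal as a block (the pairing), limma called 0 members, as with it, so the block changed no call. The 27 members higher at 4 g and the median difference of 0.09 cannot change with the block, since each animal has 1 array per dose. The number of members higher at 4 g ran from 18 to 36 over the alternatives. The median difference was −0.0564 in animals 19 and 20 and 0.24 in animals 23 and 24. Dropping the block, changing the filter or changing the variance model cannot move a member's difference, so the signs under those fits were fixed beforehand. Of 358 values of the named members under 18 alternatives, 331 kept their sign, the fixed ones included. The sign changed in 27, in 12 genes, for causes that were not tested. In animals 19 and 20 these were PDK4 (−0.0131), FGF21 (0.49), PPARGC1A (−0.40), CROT (−0.0522), ACAD11 (−0.0406), DECR2 (−0.0805), ETFB (−0.0786) and HSD17B4 (−0.0606), and in animals 23 and 24 CPT1A (0.32) and CRAT (0.11). Under normexp they were PDK4 (−0.0365) and PPARGC1A (−0.0704), with array weights CPT1A (0.0633) and CRAT (0.0803), and under median scaling CPT1A (0.0286). Without the 2 dimmest arrays they were CPT1A (0.41) and CRAT (0.0715), and without the 0 g array of animal 23 PPARGC1A (−0.0269), ETFB (−0.0035) and ETFA (−0.0083). Both of these fits had no animal term. With each animal left out in turn, the ranges were −0.22 to 0.41 for CPT1A, −0.78 to 0.59 for CRAT, −0.17 to 0.78 for CROT, −0.16 to 0.50 for PPARGC1A, −0.10 to 0.20 for ETFA and −0.0145 to 0.285 for ACADL. Over all probes, 5 were called without the 2 dimmest arrays, none of them a member. The mean over several probes of a gene was not run, since each member has 1 probe. Members near background (ACSL4, ACOX3, PDK4 and FGF21) have values that signal over background limits.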
